A study of Solanum lycopersicum with 9 samples.

Results

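The genes described here are those that the tomato plastid encodes itself. The plastid keeps a small circular genome whose genes code for core subunits of the 2 photosystems, of the NDH complex and of the ATP synthase, and for part of the machinery that expresses them, namely ribosomal proteins, the subunits of a bacterial-type RNA polymerase and a splicing factor. Neighbouring plastid genes are often transcribed together and the long transcripts are then cut and processed, so that RNA levels depend on transcription and on RNA stability alike. In ripening tomato fruit the chloroplasts of green tissue turn into chromoplasts, which lose chlorophyll and thylakoids and store carotenoids, while the plastid genome remains.

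Expression was measured in fruit of wild-type tomato, cultivar Ailsa Craig, at 4 stages of ripening defined by skin colour, with 2 arrays each at breaker, turning and pink and 3 at red ripe. The arrays were Affymetrix TomGene ST 1.1 strips, on which a set of probes (a probe set) reads each transcript, and the values are log2 signals, so that a difference of 1 is a 2-fold difference in signal. Plants were grown in an open greenhouse by hydroponics. The labels give pericarp, the fruit wall, as the tissue, whereas the methods also speak of abscission zones of the fruits and count 2 biological replicates per stage. The p-values below therefore reflect only how far these few arrays differ from one another.

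The members were the probe sets with 1 gene symbol, in the array's annotation, that follows the naming of plastid genes (psa, psb, pet, ndh or atp with a capital letter, rpo, rps, rpl or ycf with a number or letter, or one of a few single names). Of 67795 probe sets, 85 carried such a symbol, and 2 of these, rpl38 and psaD, were left out because the RefSeq annotation of assembly SLM_r2.1 places them on nuclear chromosomes. The remaining 83 probe sets carry 52 symbols. RefSeq lists 79 protein-coding plastid genes whose symbol would fit, and 27 of them had no probe set of that name, among them rbcL, the large subunit of Rubisco, and every gene of the cytochrome b6f complex. Of the members, 81 lay in the upper 5% of signals on each of the 9 arrays. The exceptions were 1 of 4 probe sets named rps16, with a mean signal of 4.22, whose symbol RefSeq also places on a nuclear chromosome, and 1 probe set of psbN.

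The symbols did not all stand for 1 gene. A single probe set stood for 40 symbols, and 12 had several, which together made up 43 of the 83 members. For 8 of the 12, probe sets with consecutive numbers outnumbered by 1 the neighbouring plastid genes without a probe set on one side in RefSeq. Among these 8, rps16 fits only without 1 of its 4 probe sets, the one with a mean signal of 4.22. The 7 probe sets named atpB, for example, carry consecutive numbers, and 6 genes without a probe set (rbcL, accD, psaI, ycf4, cemA and petA) lie between atpB and psbJ. Which gene each of them reads was not determined. In addition, 5 pairs of members with different symbols (rpl2 and ycf2, rpl23 and ycf2 in 2 pairs, ndhB and ycf1, and rps7 and ycf1) were identical on every array, which leaves 78 distinct rows. Groups of genes are therefore described over the 40 symbols with 1 probe set, and the 83 members give the totals. In RefSeq 7 symbols (rpl2, rpl16, rps3, rps4, rps12, rps14 and rps19) also name mitochondrial genes. The symbols rpl2 and rps16 are placed on nuclear chromosomes as well.

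The 9 arrays had median signals of 1.78 to 2.01 over all probe sets. Replicate arrays of a stage correlated over all probe sets with r between 0.939 and 0.991, and over the 83 members with r between 0.981 and 0.998. The median SD of the members within a stage was 0.05 for breaker, 0.05 for turning, 0.08 for pink and 0.11 for red ripe. Over all probe sets it was 0.08 for breaker, 0.21 for turning, 0.17 for pink and 0.13 for red ripe, so turning varied most across the array. Among the red ripe arrays, replicate 3 gave the highest signal for 34 of the 40 genes and replicate 2 the lowest for 30. Of the markers of ripening fruit, PG2, the fruit polygalacturonase, had signals of 9.09 and 9.50 at breaker, 10.32 and 10.33 at turning, 10.81 and 10.72 at pink and 11.25 to 11.44 at red ripe, and it was higher on each later array than at breaker. The probe set named EXP1, the symbol of a ripening expansin, went the other way, with 4.30 and 5.13 at breaker, 1.74 and 1.42 at turning, 1.57 and 1.12 at pink and 4.89 to 5.05 at red ripe. ACO1, an ethylene-forming oxidase, gave 1.31 to 1.82 on all arrays, close to the array medians, and TAPG4, a polygalacturonase of abscission zones, 1.05 to 2.94.

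Each stage was compared with breaker in 1 model fitted to all 9 arrays and all probe sets with limma, with the Benjamini-Hochberg adjustment taken across the whole array. A member is said here to have passed the test, or to have risen or fallen, at an adjusted p under 0.05, and the counts with a fold change over 2 in addition are given first. At turning, 11 of the 83 members fell more than 2-fold, against 6.8% of all probe sets, and none rose more than 2-fold, against 1.46%. At pink, 4 fell more than 2-fold, against 5.53% of all probe sets, and 1 rose, against 1.25%. At red ripe, 5 fell more than 2-fold, against 1.24%, and none rose, against 1.49%. The 11 members at turning make up 13.3% of the 83, the 4 at pink 4.82% and the 5 at red ripe 6.02%. The share at pink was thus near that of the whole array, and the shares at turning and red ripe lay above it. Nearly all members had high signals, whereas most probe sets of the array had low ones. Shares over probe sets of like signal were not computed, so these differences cannot be credited to plastid genes as such.

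These counts depend on the arrays and on the symbols. Without breaker replicate 2 or without red ripe replicate 2, the 5 members at red ripe became 2, and the 1 rise at pink became 3 without pink replicate 1 and 0 without pink replicate 2. The 11 at turning stayed between 8 and 11 whichever array was left out, and became 17 after median centring and 7 after quantile normalization. The 4 at pink became 6 without breaker replicate 1. Over the 40 symbols with 1 probe set, 6 fell more than 2-fold at turning and 1 each at pink and red ripe. After median centring of the arrays 8 members fell and none rose at pink.

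Without a fold threshold, 24 members fell at turning (9.01% of all probe sets did), 18 at pink (7.39%) and 12 at red ripe (1.69%). None rose at turning (3.87% of all probe sets), 3 rose at pink (2.77%) and none at red ripe (2.35%). At an unadjusted p under 0.05 in limma, 37 were lower at turning (13.6% of all probe sets), 29 at pink (12.3%) and 33 at red ripe (4.92%), while 2 were higher at turning (13% of all probe sets), 6 at pink (9.94%) and none at red ripe (7.43%). Over the 83 members the median log2 fold change was -0.32 for turning, -0.17 for pink and -0.27 for red ripe, against 0.12, 0.09 and 0.01 over all probe sets. The median over all probe sets reflects mostly low signals. At turning and pink the array medians were higher than at breaker, whereas the upper deciles were lower. Neither medians nor shares over probe sets with signals like those of the members were computed. The 3 comparisons share the breaker arrays. Because whole tissue was sampled, fewer plastids or plastid-rich cells and less RNA in each of them cannot be told apart in any of these values.

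**Figure D1:**
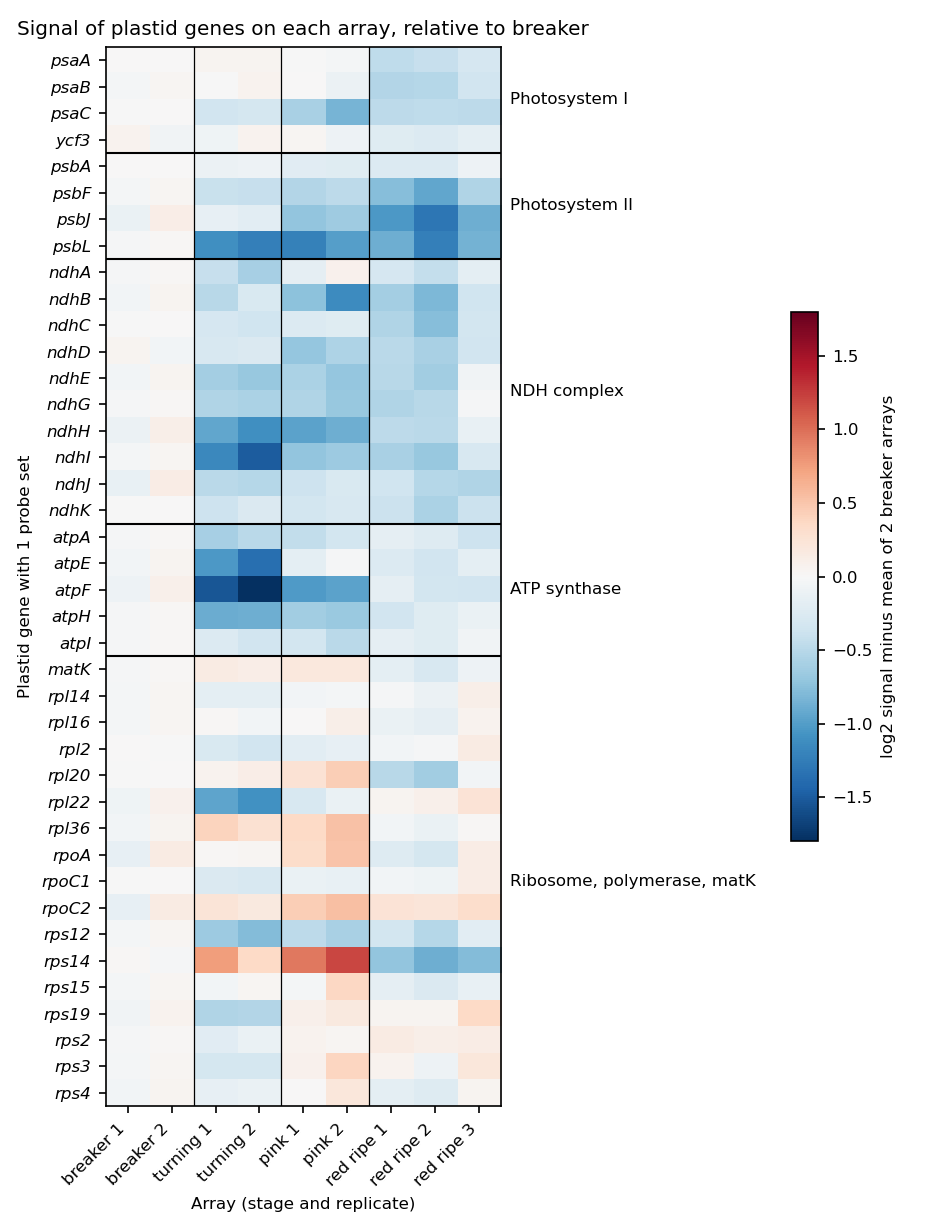
Signal of the 40 plastid genes with 1 probe set (rows, grouped by function) on each of the 9 arrays (columns), as the log2 signal minus the mean of the 2 breaker arrays. The 10 NDH, 5 ATP synthase and 4 photosystem II genes had lower stage means than breaker at each later stage, whereas genes for gene expression lay on both sides, with rps14 9.52 and 9.78 at pink and 7.70 to 7.86 at red ripe.

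All 4 photosystem II genes, all 10 NDH genes and all 5 ATP synthase genes with 1 probe set had their highest stage mean at breaker. Among the 17 genes for gene expression only 2 did, whereas 10 had their highest mean at pink and 5 at red ripe. Of the 4 photosystem I genes, 2 were highest at breaker and 2 at turning. The stage at which the mean was lowest differed too, since 4 of 5 ATP synthase genes and 5 of 10 NDH genes were lowest at turning and 3 of 4 photosystem I genes at red ripe. These are orders of means, and many of the neighbouring means differ by less than their spread. Of the 40 genes, 23 passed the test in none of the 5 comparisons made, and only psbL passed it in all 3 comparisons with breaker. The matching shares over all probe sets were not computed, so neither count can be set against the whole array.

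Photosystem II splits water, and psbA codes for D1, the reaction centre protein that is replaced fastest in the light. The signal of psbA was 11.86 and 11.86 at breaker, 11.76 and 11.77 at turning, 11.65 and 11.64 at pink and 11.62, 11.61 and 11.77 at red ripe. All later arrays lay below both breaker arrays, but by small amounts. The log2 fold change was -0.10 ± 0.13 (SE) for turning, -0.21 ± 0.13 for pink and -0.19 ± 0.12 for red ripe, and none passed the test in limma (adjusted p = 0.685, 0.393 and 0.718). The 95% interval at red ripe ran from -0.47 to 0.08 on the log2 scale.

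On the breaker arrays psbA stood at the top of the scale, since the highest signal of any probe set there was 11.88 and 11.86, and whether its differences are compressed for that reason was not tested.

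The small subunit genes psbF, psbL and psbJ had log2 fold changes further from 0 than those of psbA at each later stage in the deposited values. For psbJ at turning the order was the opposite under quantile normalization (-0.12 against -0.28 for psbA) and cyclic loess normalization (-0.04 against -0.34). The gene psbL, which codes for a small protein at the dimer interface, had signals of 9.94 and 9.97 at breaker, 8.85 and 8.72 at turning, 8.74 and 8.96 at pink and 9.07, 8.73 and 9.11 at red ripe. It was already at its lower level at turning and stayed there, with no overlap between breaker and any later stage. In limma psbL fell 2.25-fold at turning (log2 fold change -1.17 ± 0.17 SE, adjusted p = 0.00256), 2.15-fold at pink (-1.10 ± 0.17, adjusted p = 0.00396) and 1.98-fold at red ripe (-0.98 ± 0.16, adjusted p = 0.00905). The first 2 of these passed the test under each alternative run, with adjusted p up to 0.0274 and 0.0384. For the named genes whose calls are counted next, losses of a call are given for arrays left out and for other scalings. The calls of psbN, rpl20 and psbE, and of lower probe sets under a shared symbol, were not followed in this way. Of the 32 calls of named genes, 13 were lost in a fit of the 2 stages alone, 9 with a replicate block and 5 with array weights. The red ripe call of psbL was lost without breaker replicate 1 (adjusted p = 0.0772) or without breaker replicate 2 (adjusted p = 0.0997).

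Its neighbour psbJ, another small photosystem II subunit, changed later. Signals of psbJ were 9.71 and 9.96 at breaker, 9.69 and 9.65 at turning, 9.13 and 9.20 at pink and 8.80, 8.54 and 8.96 at red ripe, so that turning lay just under breaker and each following stage lay lower without overlap. The log2 fold change of psbJ was -0.17 ± 0.17 (SE) at turning, -0.67 ± 0.17 at pink (limma, adjusted p = 0.0424) and -1.07 ± 0.16 at red ripe (adjusted p = 0.0063, 2.10-fold). The call at red ripe was lost without breaker replicate 2 (adjusted p = 0.0912). The call at pink was lost without either breaker array, either pink array or the first red ripe array (in that order, adjusted p = 0.098, 0.294, 0.123, 0.0912 and 0.0793).

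The gene psbF, which codes for a subunit of cytochrome b559 of photosystem II, had signals of 10.82 and 10.89 at breaker, 10.45 and 10.44 at turning, 10.33 and 10.38 at pink and 10.09, 9.92 and 10.32 at red ripe. Each later array lay below both breaker arrays, and red ripe replicate 3 came close to pink. It fell 1.68-fold at red ripe in limma (log2 fold change -0.74 ± 0.14 SE, adjusted p = 0.0242) and was past the threshold at neither turning (-0.41 ± 0.16, adjusted p = 0.139) nor pink (-0.50 ± 0.16, adjusted p = 0.0924). The red ripe call of psbF was lost without either breaker array or the first or second red ripe array (in that order, adjusted p = 0.145, 0.218, 0.101 and 0.101). Over the 4 photosystem II genes the median log2 fold change was -0.29 for turning, -0.58 for pink and -0.86 for red ripe, and all 4 genes were below breaker at each stage under median centring, quantile and cyclic loess normalization as well.

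**Figure D2:**
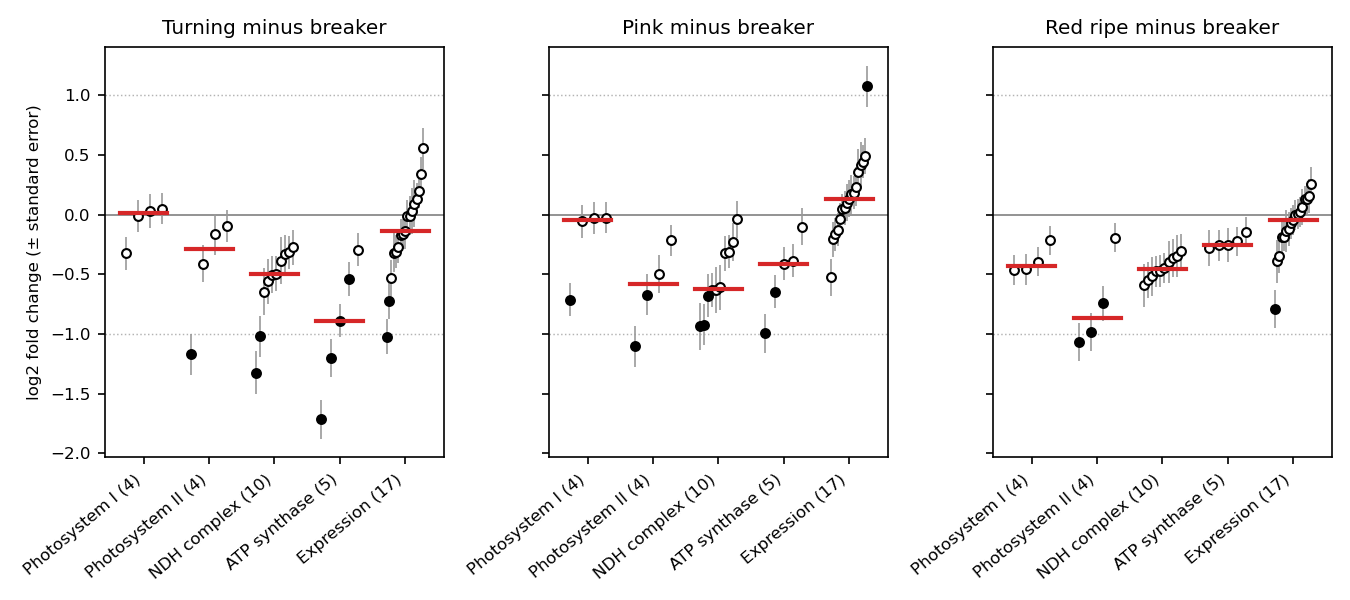
Log2 fold change (vertical axis, ± standard error from limma) of each of the 40 genes with 1 probe set, by function and with the number of genes in brackets, at turning, pink and red ripe against breaker. Filled points passed an adjusted p of 0.05, red bars are medians of the group, and dotted lines mark a 2-fold difference. The ATP synthase median was -0.89 at turning and -0.26 at red ripe, whereas the photosystem II median was -0.29 and -0.86. The photosystem II genes here are psbA and, from 1 transcription unit, psbF, psbL and psbJ.

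Photosystem I genes behaved unlike one another. The paired core proteins of its reaction centre are encoded by psaA and psaB, and the signal of psaA was 11.41 and 11.41 at breaker, 11.46 and 11.46 at turning, 11.40 and 11.37 at pink and 10.95, 10.99 and 11.11 at red ripe. That of psaB was 11.23 and 11.29 at breaker, 11.25 and 11.33 at turning, 11.26 and 11.15 at pink and 10.73, 10.75 and 10.92 at red ripe. Both stayed at the breaker level through pink and were lower on all 3 red ripe arrays. At turning the log2 fold change was 0.05 for psaA (95% interval -0.25 to 0.35) and 0.03 for psaB (-0.29 to 0.35), so that a 2-fold fall lies outside these intervals. At red ripe it was -0.39 ± 0.12 (SE) for psaA and -0.46 ± 0.13 for psaB, and neither passed the test in limma (adjusted p = 0.144 and 0.101).

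The gene psaC, whose product carries the terminal iron-sulfur clusters of photosystem I, had signals of 10.86 and 10.88 at breaker, 10.53 and 10.56 at turning, 10.28 and 10.03 at pink and 10.40, 10.41 and 10.40 at red ripe. Unlike psaA and psaB it was below breaker on every later array, lowest at pink. It fell 1.64-fold at pink (log2 fold change -0.71 ± 0.14 SE, limma adjusted p = 0.012), a call that was lost without breaker replicate 1 (adjusted p = 0.0825) or replicate 2 (adjusted p = 0.0949). RefSeq places psaC among the ndh genes on the plastid, away from psaA and psaB. The assembly factor gene ycf3 ranged from 10.86 to 11.17 over the 9 arrays, with a log2 fold change of -0.22 ± 0.12 (SE) at red ripe (adjusted p = 0.651) and of -0.01 and -0.03 at turning and pink. Whether the photosystem I genes lay above or below breaker at turning depended on the scaling, since 2 of 4 lay below in the deposited values and after quantile normalization 3 did, against 4 of 4 after median centring or cyclic loess normalization.

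The NDH complex resembles the respiratory complex I and returns electrons from ferredoxin to the photosynthetic chain. All 10 NDH genes with 1 probe set had lower means than breaker at each later stage, in the deposited values and under all 3 other scalings. Their median log2 fold change was -0.50 for turning, -0.62 for pink and -0.46 for red ripe, with ranges of -1.32 to -0.28, -0.94 to -0.04 and -0.59 to -0.30. At turning 2 of the 10 fell, at pink 4 and at red ripe none, although 7 had an unadjusted p under 0.05 at red ripe in limma. Over all probe sets 9.01% fell for turning, 7.39% for pink and 1.69% for red ripe, and 4.92% were lower at red ripe at an unadjusted p under 0.05. The spread between genes was thus widest at turning and narrowest at red ripe.

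The gene ndhI, which codes for an iron-sulfur subunit, had signals of 10.18 and 10.25 at breaker, 9.06 and 8.72 at turning, 9.51 and 9.56 at pink and 9.63, 9.53 and 9.93 at red ripe. Turning stood lowest, apart from all other arrays. It fell 2.51-fold at turning (log2 fold change -1.32 ± 0.18 SE, limma adjusted p = 0.00179), and this call held under each alternative run (adjusted p up to 0.0253). At pink it fell 1.60-fold with an adjusted p of 0.0477 in limma, close to the threshold, and the call was lost without either breaker array, either pink array, red ripe replicate 1 or red ripe replicate 2 (adjusted p between 0.0683 and 0.248). At red ripe ndhI had a log2 fold change of -0.52 ± 0.16 (adjusted p = 0.168).

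The gene ndhH, for a subunit of the arm that takes up electrons, had signals of 9.46 and 9.66 at breaker, 8.63 and 8.45 at turning, 8.59 and 8.68 at pink and 9.09, 9.07 and 9.43 at red ripe. Turning and pink shared a low level, and red ripe lay between them and breaker. It fell 2.03-fold at turning (log2 fold change -1.02 ± 0.17 SE, limma adjusted p = 0.00519) and 1.90-fold at pink (-0.92 ± 0.17, adjusted p = 0.00991). Both calls were lost without breaker replicate 2, at adjusted p = 0.0569 and 0.0956.

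The membrane subunit genes ndhB and ndhD were lowest at pink. Signals of ndhB were 9.26 and 9.35 at breaker, 8.81 and 9.03 at turning, 8.57 and 8.17 at pink and 8.70, 8.50 and 8.94 at red ripe, with red ripe overlapping both pink and turning. It fell 1.91-fold at pink (log2 fold change -0.94 ± 0.20 SE, limma adjusted p = 0.0183), was at -0.39 ± 0.20 at turning (adjusted p = 0.256) and at -0.59 ± 0.18 at red ripe (adjusted p = 0.147). The pink call of ndhB was lost without either breaker array or the second pink array (in that order, adjusted p = 0.0887, 0.127 and 0.0822). Its probe set is identical to 1 of the 3 named ycf1. Signals of ndhD were 11.00 and 10.90 at breaker, 10.66 and 10.69 at turning, 10.25 and 10.39 at pink and 10.46, 10.36 and 10.60 at red ripe. Pink overlapped red ripe and lay below breaker and turning. It fell 1.55-fold at pink (log2 fold change -0.63 ± 0.14 SE, limma adjusted p = 0.0252), a call lost without either breaker array, the first pink or the first red ripe array (in that order, adjusted p = 0.176, 0.115, 0.0865 and 0.0539).

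Red ripe replicate 3 stood out among NDH genes, since it gave the highest red ripe signal for 9 of the 10. For ndhG it read 10.88 against 10.36 and 10.40 on the other red ripe arrays and 10.88 and 10.91 at breaker, and for ndhE 10.90 against 10.46 and 10.33 on the others and 10.91 and 11.01 at breaker. For these genes the red ripe level thus spans the range between the later stages and breaker. Without this array the median log2 fold change of the 10 NDH genes at red ripe was -0.53 in place of -0.46, all 10 lay below breaker and none passed the test.

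Of the 5 ATP synthase genes with 1 probe set, 4 were lowest at turning. The catalytic part of the enzyme (CF1) is encoded in the plastid by atpA, atpB and atpE and its membrane part (CF0) by atpF, atpH and atpI. Signals of atpF were 10.77 and 10.94 at breaker, 9.31 and 8.97 at turning, 9.83 and 9.89 at pink and 10.70, 10.52 and 10.51 at red ripe. The 4 stages did not overlap, with turning lowest and red ripe nearly at breaker. The gene fell 3.28-fold at turning (log2 fold change -1.71 ± 0.16 SE, limma adjusted p = 0.000301), the largest difference from breaker among the 83 members, and 1.99-fold at pink (-0.99 ± 0.16, adjusted p = 0.00531). The call at turning held under each alternative run (adjusted p up to 0.0166) and the call at pink was lost without breaker replicate 2 (adjusted p = 0.0587).

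The epsilon subunit gene atpE had signals of 9.79 and 9.89 at breaker, 8.80 and 8.48 at turning, 9.66 and 9.82 at pink and 9.59, 9.50 and 9.66 at red ripe. The turning arrays stood far below the others, and pink overlapped breaker. It fell 2.30-fold at turning (log2 fold change -1.20 ± 0.16 SE, limma adjusted p = 0.00149), which held under each alternative run (adjusted p up to 0.0304). The gene of the proton-carrying ring, atpH, had signals of 11.16 and 11.21 at breaker, 10.29 and 10.30 at turning, 10.56 and 10.52 at pink and 10.84, 10.97 and 11.07 at red ripe. Its stages did not overlap and followed the same order as those of atpF. It fell 1.85-fold at turning (-0.89 ± 0.14, adjusted p = 0.00325), under each alternative run as well (adjusted p up to 0.038), and 1.56-fold at pink (-0.65 ± 0.14, adjusted p = 0.0186). The pink call of atpH was lost without either breaker array or the second pink array (in that order, adjusted p = 0.104, 0.139 and 0.057).

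The alpha subunit gene atpA had signals of 10.25 and 10.30 at breaker, 9.68 and 9.79 at turning, 9.83 and 9.95 at pink and 10.11, 10.04 and 9.90 at red ripe. The order was again turning, pink, red ripe and breaker from low to high, with pink and red ripe overlapping. It fell 1.45-fold at turning (log2 fold change -0.54 ± 0.14 SE, limma adjusted p = 0.0374), a call lost without either breaker array, the first turning array or the first or second red ripe array (in that order, adjusted p = 0.156, 0.214, 0.0865, 0.0641 and 0.073). It was also lost under 6 other alternatives, among them quantile (adjusted p = 0.0708) and cyclic loess normalization (adjusted p = 0.0544). It was at -0.38 ± 0.14 at pink (adjusted p = 0.143) and -0.26 ± 0.13 at red ripe (adjusted p = 0.518). The gene atpI, for another membrane subunit, ranged from 10.05 to 10.56 over the arrays and passed the test in no comparison. Over the 5 genes the median log2 fold change was -0.89 for turning, -0.41 for pink and -0.26 for red ripe, and all 5 lay below breaker at each stage under all scalings tried. At red ripe they spanned only -0.28 to -0.15, and none passed the test in limma or had an unadjusted p under 0.05.

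**Figure D3:**
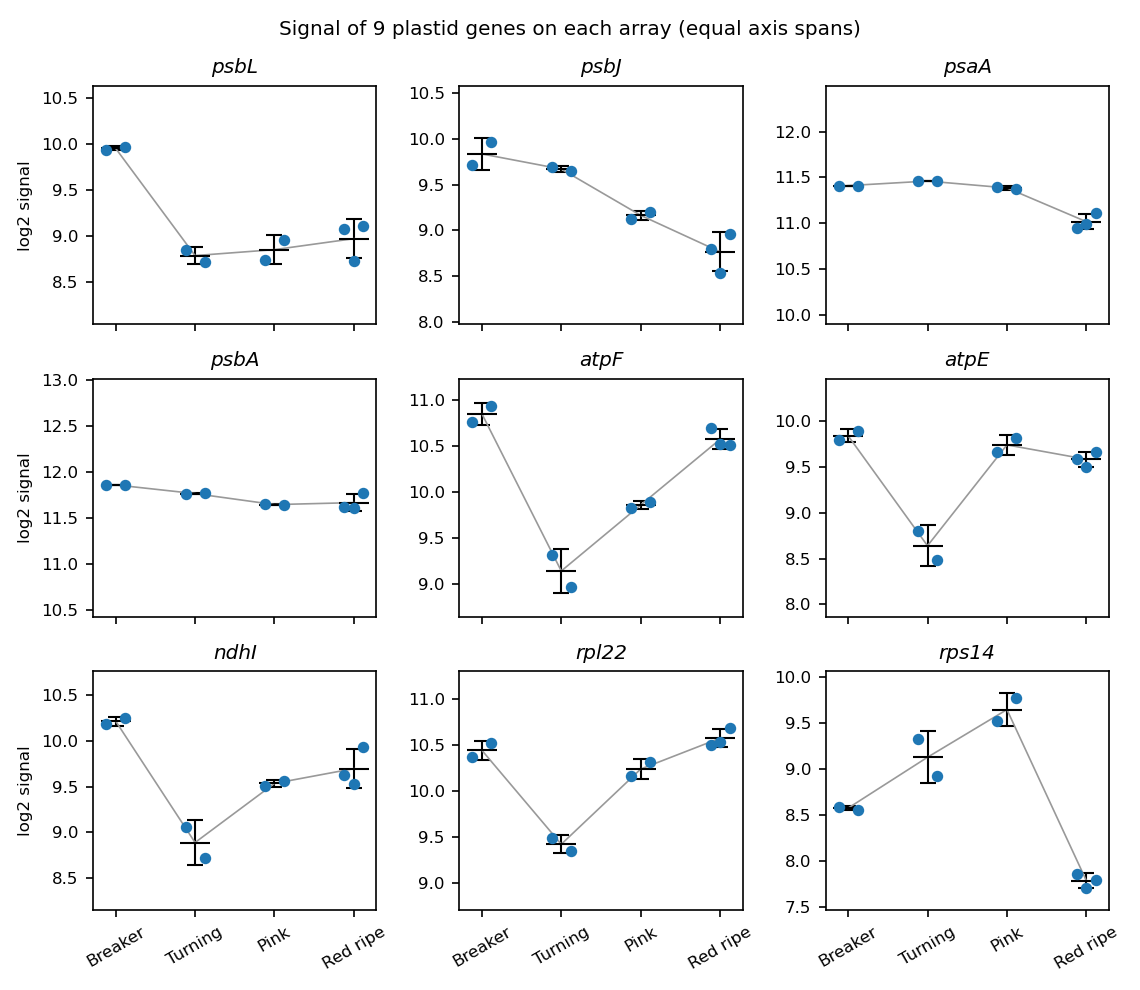
Log2 signal (vertical axis, the same span in each panel) of 9 plastid genes at breaker, turning, pink and red ripe; points are arrays (2, 2, 2 and 3), horizontal marks the stage means and bars the SD. The genes atpF, atpE, ndhI and rpl22 were lowest at turning, psbL stayed between 8.72 and 9.11 after breaker, psbJ was lowest at red ripe, and rps14 was highest at pink and lowest at red ripe.

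The 17 genes for gene expression with 1 probe set comprised 13 for ribosomal proteins, 3 for polymerase subunits and matK. Their median log2 fold change was -0.14 for turning, 0.14 for pink and -0.05 for red ripe. At turning 11 of 17 lay below breaker, at pink 5 and at red ripe 10. After median centring the number below breaker was 14 for turning, 8 for pink and 9 for red ripe, after quantile normalization 9, 4 and 9, and after cyclic loess 10, 7 and 9, so the median at pink stayed above 0 in each case. Of the 17, rpl22 and rps12 fell at turning (11.8%, against 9.01% of all probe sets, so near that share). The gene rps14 rose at pink (5.88%, against 2.77%) and fell at red ripe (5.88%, against 1.69%). No other of the 17 passed the test against breaker.

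The gene rps14, for a protein of the small ribosomal subunit, moved furthest of these. Its signals were 8.59 and 8.56 at breaker, 9.33 and 8.93 at turning, 9.52 and 9.78 at pink and 7.86, 7.70 and 7.79 at red ripe. It was above breaker at turning and pink and below it at red ripe, with no overlap between breaker and any other stage. In limma rps14 was at a log2 fold change of 0.55 ± 0.17 (SE) at turning, rose 2.11-fold at pink (1.07 ± 0.17, adjusted p = 0.0049) and fell 1.73-fold at red ripe (-0.79 ± 0.16, adjusted p = 0.0276). The rise at pink held under each alternative run (adjusted p up to 0.045). The fall at red ripe was lost without either breaker array or any 1 red ripe array (in the order of the arrays, adjusted p = 0.198, 0.192, 0.0846, 0.122 and 0.0667). RefSeq lists an rps14 in the mitochondrion too, and the annotation of the array does not say which of them the probe set reads. In the numbering of the array it stands between psbM and psaB, which lie on its 2 sides among the members' plastid genes.

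The gene rpl22, for a protein of the large subunit, had signals of 10.37 and 10.52 at breaker, 9.49 and 9.35 at turning, 10.16 and 10.32 at pink and 10.50, 10.54 and 10.69 at red ripe. Turning stood far below the other stages, and red ripe overlapped breaker. It fell 2.03-fold at turning (log2 fold change -1.02 ± 0.15 SE, limma adjusted p = 0.00233), and this held under each alternative run (adjusted p up to 0.0324). The gene rps12, which is spliced from transcripts of separate loci, had signals of 10.63 and 10.69 at breaker, 10.00 and 9.88 at turning, 10.19 and 10.08 at pink and 10.33, 10.14 and 10.47 at red ripe. All later arrays lay below breaker. It fell 1.65-fold at turning (-0.72 ± 0.15, adjusted p = 0.0159), which was lost without breaker replicate 1 (adjusted p = 0.084) or 2 (adjusted p = 0.118), and was at -0.53 ± 0.15 at pink (adjusted p = 0.0687).

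The gene rpl2, for a core protein of the large subunit, had signals of 11.10 and 11.09 at breaker, 10.82 and 10.75 at turning, 10.91 and 10.95 at pink and 11.04, 11.07 and 11.24 at red ripe. It was lower at turning and pink, with red ripe on both sides of breaker, and passed no test against breaker (log2 fold change -0.31 ± 0.14 SE at turning, limma adjusted p = 0.187). The remaining ribosomal protein genes with 1 probe set passed no test against breaker. Among them rpl36 was at 0.45 ± 0.14 at pink (adjusted p = 0.0889) and rps19 at -0.53 ± 0.16 at turning (adjusted p = 0.0584).

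The plastid-encoded RNA polymerase consists of the products of rpoA, rpoB, rpoC1 and rpoC2. Signals of rpoA, for the alpha subunit, were 8.84 and 9.14 at breaker, 9.01 and 9.03 at turning, 9.32 and 9.50 at pink and 8.76, 8.67 and 9.13 at red ripe. The turning arrays lay between the breaker arrays, and only pink lay clear of them. The log2 fold change of rpoA was 0.03 ± 0.19 (SE) at turning, 0.42 ± 0.19 at pink (limma adjusted p = 0.24) and -0.14 ± 0.17 at red ripe. The gene rpoC2 lay above breaker at each stage, at 0.20 ± 0.15, 0.49 ± 0.15 (adjusted p = 0.0779) and 0.26 ± 0.14. The maturase gene matK, whose product helps to splice plastid introns, had signals of 10.95 and 10.98 at breaker, 11.11 and 11.08 at turning, 11.15 and 11.15 at pink and 10.79, 10.67 and 10.88 at red ripe. It was a little above breaker at turning and pink and below it at red ripe, and no difference passed the test (log2 fold change 0.13 ± 0.13, 0.18 ± 0.13 and -0.18 ± 0.12, adjusted p = 0.577, 0.479 and 0.773).

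At red ripe, 33 of the 40 genes lay below breaker (36 without red ripe replicate 3 and 32 without replicate 1 or 2), and the 7 above it (rpl2, rpl22, rpoC1, rpoC2, rps2, rps3 and rps19) all belonged to gene expression. At turning the 8 genes above breaker were matK, rpl20, rpl36, rpoA, rpoC2 and rps14 from gene expression and psaA and psaB. At pink all 12 above it were genes for gene expression. These lists rest on the sign alone, and of the genes above breaker only rps14 at pink passed the test. At red ripe rpoC1 was at a log2 fold change of 0.005 and rpl2 at 0.02. The lists also changed with the scaling. At pink 9 genes lay above breaker after median centring and 14 after quantile normalization, then with the photosystem I gene ycf3 (0.005) among them.

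Genes of one transcription unit did not keep one ratio to breaker at each stage. In the unit atpI, atpH, atpF and atpA the log2 fold changes at turning ran from -1.71 for atpF to -0.29 for atpI, a spread of 1.42, whereas at red ripe the spread over the same 4 genes was 0.13. In the unit of ndhH, ndhA, ndhI, ndhG, ndhE, psaC and ndhD the spread was 1.05 for turning, 0.89 for pink and 0.22 for red ripe. The ribosomal protein unit that runs through rpl2 and rpoA had 8 genes with 1 probe set, and these spread over 1.36 at turning, with rpl22 at -1.02 and rpl36 at 0.34, and over 0.29 at red ripe. In psbF, psbL and psbJ the spread was 1.00 at turning and 0.32 at red ripe. Thus in each of these 4 units the genes lay closer together at red ripe than at turning.

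The unit of psaA, psaB and rps14 was widest at pink instead, with a spread of 1.13 at pink, 0.53 at turning and 0.40 at red ripe. There psaA and psaB stood at -0.03 and -0.06 while rps14 stood at 1.07. The unit of ndhC, ndhK and ndhJ was narrow throughout, with a spread of 0.18 for turning, 0.10 for pink and 0.10 for red ripe. The genes rps2, rpoC2 and rpoC1 spread over 0.47 for turning, 0.61 for pink and 0.26 for red ripe. These spreads are descriptions, since the standard error of a single log2 fold change was between 0.12 and 0.34 and no test was made between genes.

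**Figure D4:**
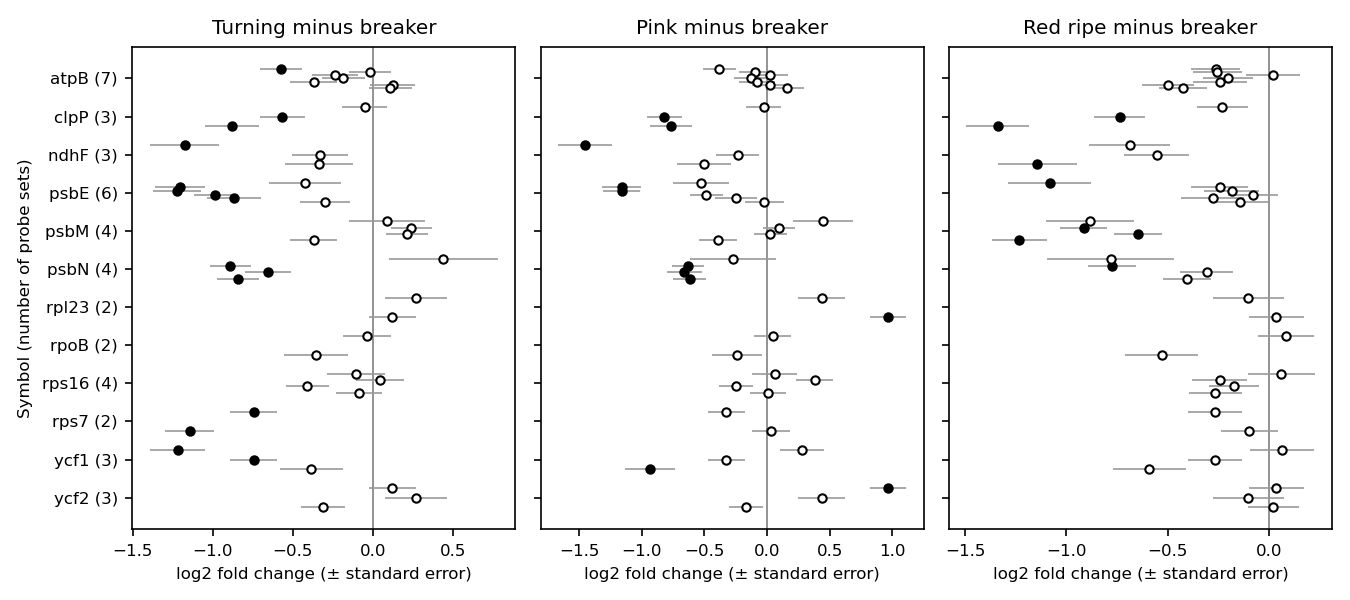
Log2 fold change against breaker (horizontal axis, ± standard error from limma) at turning, pink and red ripe of each probe set of the 12 symbols with several probe sets, with their number in brackets; filled points passed an adjusted p of 0.05. Probe sets under one symbol did not lie together, as in psbE at turning, which ran from -1.23 to -0.30, and in clpP at red ripe, which ran from -1.34 to -0.23.

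Probe sets that share a symbol did not all have the same pattern. The name psbE was carried by 6 probe sets. It is a cytochrome b559 subunit, and at turning 4 of the probe sets fell, with log2 fold changes from -1.23 to -0.30 over the 6. At red ripe they ran from -1.08 to -0.08 and 1 fell. One of them had signals of 10.99 and 11.09 at breaker, 9.85 and 9.82 at turning, 9.99 and 9.77 at pink and 10.76, 10.67 and 10.96 at red ripe, low at turning and pink alone. Another had 10.32 and 10.28 at breaker, 9.90 and 9.85 at turning, 9.68 and 9.87 at pink and 9.07, 8.94 and 9.64 at red ripe, lowest at red ripe. RefSeq places petL, petG, psaJ, rpl33 and rps18, which had no probe set of their own, next to psbE.

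The 4 probe sets named psbM, a small photosystem II subunit, had the latest change. None passed the test at turning or pink, where their log2 fold changes ran from -0.37 to 0.24 and from -0.39 to 0.45, and at red ripe all 4 were lower, from -1.23 to -0.65, of which 3 fell. The probe set with the highest mean signal had 11.43 and 11.51 at breaker, 11.68 and 11.69 at turning, 11.44 and 11.55 at pink and 10.89, 10.82 and 10.76 at red ripe. It overlapped breaker at pink and lay well below all other arrays at red ripe. It fell 1.57-fold at red ripe (log2 fold change -0.65 ± 0.12 SE, limma adjusted p = 0.02), a call lost without either breaker array or any 1 red ripe array (adjusted p between 0.0577 and 0.212) and under cyclic loess normalization (adjusted p = 0.0761). The genes psbD, psbC and psbZ, which had no probe set of their own, lie on one side of psbM, and petN on the other.

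Of the 4 probe sets named psbN, in tobacco an assembly factor of photosystem II, 3 fell at turning and at pink, and 1 of these at red ripe. The probe set with the highest mean had 11.14 and 11.17 at breaker, 10.22 and 10.31 at turning, 10.53 and 10.52 at pink and 10.38, 10.33 and 10.43 at red ripe, so every later array was lower than breaker. The fall was 1.85-fold for turning, 1.55-fold for pink and 1.71-fold for red ripe (limma adjusted p = 0.00241, 0.0156 and 0.00718). The fourth probe set ranged from 6.45 to 7.83 and its pink arrays read 6.45 and 7.72, the widest gap between replicates among the members.

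Of the 3 probe sets named clpP, the plastid subunit of the Clp protease, the one with the highest mean hardly moved, with signals of 11.02 and 10.96 at breaker, 10.93 and 10.95 at turning, 10.90 and 11.03 at pink and 10.68, 10.71 and 10.89 at red ripe. Turning lay just under breaker and red ripe further below it, at a log2 fold change of -0.23 ± 0.13 (SE, limma adjusted p = 0.622). The other 2 fell at turning, pink and red ripe, and one of them had 10.01 and 9.99 at breaker, 9.02 and 9.22 at turning, 9.16 and 9.31 at pink and 8.54, 8.55 and 8.89 at red ripe. It fell 2.53-fold at red ripe (-1.34 ± 0.15, adjusted p = 0.00166), which was the lowest log2 fold change of any member at that stage. RefSeq places psbB and psbT, without a probe set of their own, beside clpP.

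Among 3 probe sets named ndhF, the one with the highest mean had 9.77 and 9.78 at breaker, 9.38 and 9.51 at turning, 9.41 and 9.67 at pink and 9.19, 9.03 and 9.44 at red ripe, below breaker throughout but past no test (log2 fold change -0.55 ± 0.16 SE at red ripe, limma adjusted p = 0.116). Another fell 2.26-fold at turning and 2.73-fold at pink (adjusted p = 0.00807 and 0.00328), with 8.26 and 8.17 at breaker, 7.31 and 6.77 at turning, 6.59 and 6.94 at pink and 7.55, 7.34 and 7.69 at red ripe. The third passed the test against breaker at red ripe alone, where it fell 2.21-fold (adjusted p = 0.013). The genes rpl32 and ccsA, without a probe set of their own, lie beside ndhF.

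Of the 7 probe sets named atpB, the beta subunit of the ATP synthase, 1 fell at turning and none at pink or red ripe. That probe set had 10.27 and 10.43 at breaker, 9.79 and 9.76 at turning, 9.95 and 9.99 at pink and 10.08, 10.08 and 10.10 at red ripe, with turning lowest and red ripe closest to breaker, the order also seen in atpA. It fell 1.49-fold at turning (log2 fold change -0.57 ± 0.13 SE, limma adjusted p = 0.0213). The probe set with the highest mean had 11.32 and 11.39 at breaker, 11.34 and 11.34 at turning, 11.21 and 11.31 at pink and 11.10, 11.04 and 11.16 at red ripe. It stood at -0.01 ± 0.13 at turning and -0.25 ± 0.12 at red ripe (adjusted p = 0.954 and 0.464).

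For rpoB, the beta subunit of the polymerase, the probe set with the higher mean had 10.22 and 10.16 at breaker, 9.81 and 9.86 at turning, 9.96 and 9.94 at pink and 9.90, 9.78 and 9.30 at red ripe, all below breaker, with log2 fold changes of -0.35 ± 0.20, -0.24 ± 0.20 and -0.53 ± 0.18 (SE, limma adjusted p = 0.293, 0.536 and 0.211). The large reading frames ycf1 and ycf2, whose products have been linked in other species to protein import across the plastid envelope, had 3 probe sets each. The highest ycf1 probe set, identical to one of rps7, had 10.74 and 10.68 at breaker, 9.89 and 10.04 at turning, 10.31 and 10.46 at pink and 10.42, 10.34 and 10.57 at red ripe. It was lowest at turning and fell 1.68-fold there (limma adjusted p = 0.0108), a call lost without breaker replicate 1 (adjusted p = 0.0853) or 2 (adjusted p = 0.0698). The highest ycf2 probe set is identical to that of rpl2, given above. Another ycf2 probe set, identical to one of rpl23, had 9.33 and 9.33 at breaker, 9.42 and 9.48 at turning, 10.18 and 10.41 at pink and 9.43, 9.24 and 9.43 at red ripe. Only the pink arrays were high, and it rose 1.95-fold at pink (limma adjusted p = 0.00355).

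In tobacco a nuclear-encoded polymerase transcribes mainly accD, clpP, ycf1, ycf2 and the rpoB unit. Of these 7 symbols 6 had members, 13 probe sets in all. Of these, 4 fell at turning, 3 fell and 1 rose at pink, and 2 fell at red ripe, against 9.01%, 7.39% and 1.69% of all probe sets that fell and 2.77% that rose at pink. Of the 13, 5 named ycf1 or ycf2 are identical to rows of rps7, ndhB, rpl23 or rpl2, and the rise is that of a row shared with rpl23. Of the 8 that are not, 3 fell for turning, 2 for pink and 2 for red ripe, and none rose. The falls at pink and red ripe, and 2 of the 3 at turning, were those of 2 probe sets named clpP. Which gene these read was not determined, since psbB and psbT lie beside clpP without a probe set of their own. The genes rpoC1 and rpoC2, with 1 probe set each, passed no test against breaker. The median log2 fold change of the 8 probe sets was -0.31 for turning, -0.07 for pink and -0.11 for red ripe, against -0.32, -0.17 and -0.27 over all 83 members.

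Between pink and turning, 3 members rose more than 2-fold (1.12% of all probe sets did) and none fell more than 2-fold (0.532%). Without a fold threshold 6 rose (1.47%) and none fell (0.875%), with 16 higher (7.17%) and 5 lower (7.3%) at an unadjusted p under 0.05 in limma. The 17 genes for gene expression with 1 probe set all had higher means at pink than at turning, under each scaling tried, and their median log2 fold change was 0.21. One of them, rpl22, rose 1.77-fold (0.82 ± 0.15 SE, limma adjusted p = 0.0281), a call lost without either breaker array, pink replicate 2 or red ripe replicate 1 or 2 (adjusted p between 0.0628 and 0.0924) and in a fit of the 2 stages alone (adjusted p = 0.387). The gene atpE rose 2.14-fold (1.10 ± 0.16, adjusted p = 0.012), a call lost without pink replicate 2 (adjusted p = 0.0516) and in a fit of the 2 stages alone (adjusted p = 0.266).

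Between red ripe and pink, 3 members fell more than 2-fold (1.32% of all probe sets did), which became 5 without pink replicate 1, and none rose more than 2-fold (7.76%), which became 2 without pink replicate 1. Leaving out pink replicate 2 or red ripe replicate 1 gave 2 falls, and leaving out red ripe replicate 1 or 2 gave 1 rise. The split was 2 falls and 2 rises after median centring or cyclic loess and 3 falls and 2 rises after quantile normalization. Without a fold threshold 13 fell (4.09%) and 5 rose (10.8%), with 23 lower (12.2%) and 9 higher (14.7%) at an unadjusted p under 0.05 in limma. The largest fall was that of rps14, 3.65-fold (log2 fold change -1.87 ± 0.16 SE, limma adjusted p = 0.0001), and it held under each alternative run (adjusted p up to 0.00161). All 4 probe sets named psbM fell, by log2 fold changes of -1.33 to -0.67 (the call of the one with the highest mean was lost under cyclic loess normalization, adjusted p = 0.142), and rpl20 and rpl36 fell among the genes with 1 probe set. The call of rpl36 was lost under 10 of the alternatives, among them leaving out either breaker array, pink replicate 2 or any 1 red ripe array (adjusted p between 0.0542 and 0.129), median centring (adjusted p = 0.121) and cyclic loess normalization (adjusted p = 0.0578).

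The genes that rose between red ripe and pink were among those low at turning. The gene atpF rose 1.64-fold (log2 fold change 0.72 ± 0.15 SE, limma adjusted p = 0.0116), a call lost without pink replicate 1 (adjusted p = 0.0536) or red ripe replicate 1 (adjusted p = 0.0516), and ndhH rose 1.48-fold (0.56 ± 0.16, adjusted p = 0.0442). The call of ndhH was lost without any 1 of the breaker, pink or red ripe arrays (adjusted p between 0.0722 and 0.149) and after quantile (adjusted p = 0.0863) or cyclic loess normalization (adjusted p = 0.141). The other 3 probe sets that rose were 1 named ndhF and 2 named psbE.

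Genes of the nucleus for partner proteins (subunits of both photosystems, light-harvesting and Rubisco small-subunit genes and a sigma factor) matched 9 probe sets by name, 3 of them (RBCS-1, RBCS-2A and sig1) with signals of 2.51 or less on every array. Of the 9, 3 fell for turning, 2 for pink and 4 for red ripe, against 9.01%, 7.39% and 1.69% of all probe sets, and none rose. At an unadjusted p under 0.05 in limma 4, 3 and 5 of the 9 were lower and none higher. The genes that fell at red ripe were psaD, PsbQ, PSBP and CAB4, whereas PSBO was at a log2 fold change of -0.51 (adjusted p = 0.344) and PSBR at -0.18 (adjusted p = 0.92). The nuclear photosystem I gene psaD had signals of 10.12 and 10.18 at breaker, 8.75 and 9.28 at turning, 9.13 and 9.22 at pink and 7.17, 7.05 and 7.27 at red ripe. It fell 7.93-fold at red ripe (log2 fold change -2.99 ± 0.17 SE, limma adjusted p = 3.66e-05), next to -0.39 and -0.46 for the plastid genes psaA and psaB of the same complex. No difference between the plastid and the nuclear genes was tested.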

How the data were processed

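Total RNA of tomato fruit was hybridized to Affymetrix TomGene ST 1.1 strips, 9 arrays in all. The deposited values are log2 signals per probe set that the authors obtained with RMA in Affymetrix Expression Console, and Transcriptome Analysis Console 2.0 is also named in the submitters' processing notes. RMA corrects background, equalizes the arrays and summarizes probes, which can remove shifts common to all probe sets. The deposited values still differed in distribution between stages. Array medians were 1.94 to 2.01 at turning and pink and 1.78 to 1.84 at breaker and red ripe. The upper decile of signals went the other way, with 4.17 to 4.55 at turning and pink and 5.09 to 5.43 at breaker and red ripe. All 67795 probe sets were used as deposited, with no filter. A mean per stage was fitted with limma 3.58.1 in R 4.3.3 (lmFit, eBayes; 5 residual and 3.65 prior degrees of freedom), with Benjamini-Hochberg adjustment over all probe sets. Calls were made at an adjusted p under 0.05, with or without a fold change over 2. The fit was tested on simulated data. No call of detection is available per value, and the number of arrays limits the precision.

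The members, gene lists and named genes were chosen with earlier results of these data known. Genes named in full were a list of main plastid genes and, per function and comparison with breaker, those with the largest rise and fall, read from the probe set with the highest mean signal. Of the list, rbcL, psbB, psbD, petB, accD, cemA and ccsA had no probe set of that name, so that genes most like rbcL could not be sought. Other genes that passed the test, probe sets under shared symbols and ndhE, ndhG, rps19 and rpoC2 were added after their values were seen. Names and gene order came from RefSeq, assembly SLM_r2.1, without coordinates, since nothing ties the array's design to an assembly. The alternatives were a replicate block, each array left out, median centring, quantile and cyclic loess normalization, probe sets of low signal left out, an intensity trend with robust moderation, array weights, only the stages compared, no fold threshold, and the mean or the highest probe set per gene. Other alternatives, the 40 symbols with 1 probe set, identical rows counted once and the uncertain rps16 probe set left out, were chosen after seeing the data. Sequences were not used here.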

Additional observations from a re-analysis of the deposited data

How the results depend on the processing

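The direction of the 32 calls of named genes, and whether each passed the test, were compared over the alternatives, and no direction reversed. Under each alternative run 9 calls passed the test; the others were lost under at least 1 alternative, most often when 1 array was left out (73 such refits against 215 in which the call stood) or when only the 2 stages compared were fitted (13 of 32). Because only 2 arrays stand behind most stages, a refit without one assumes that the lone array varies like the other stages. Limma's array weights, low where arrays of a stage differ, were 2.21 for breaker, 0.40 for turning, 0.57 for pink and 0.90 to 2.11 for red ripe.

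The number of members that fell more than 2-fold at turning, 11, was 17 after median centring, which moves every log2 fold change at turning by -0.165, 7 after quantile normalization, and 6 with the mean of all probe sets of a gene, with 1 probe set per gene or with only the 40 symbols of 1 probe set. At pink the 4 became 8 after median centring and 1 under each of those 3 ways of counting genes, and the 1 rise became 0 after median centring. At red ripe the 5 became 1, and between red ripe and pink the 3 falls became 1, under the same 3 ways. Between pink and turning the 3 rises became 1 under these 3 ways and after quantile normalization, and 0 with array weights or only the 2 stages. Between red ripe and pink the 0 rises became 2 after median centring, quantile or cyclic loess normalization. With no fold threshold the counts were 24 falls at turning, 18 falls and 3 rises at pink, 12 falls at red ripe, 6 rises between pink and turning, and 13 falls and 5 rises between red ripe and pink. The cause of these shifts was not tested, except that fewer probe sets were counted where genes or symbols were counted once.

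With 1 array left out, falls numbered 8 to 11 at turning, 4 to 6 at pink, 2 to 6 at red ripe, 0 to 1 between pink and turning and 2 to 5 between red ripe and pink, and rises 0, 0 to 3, 0, 2 to 3 and 0 to 2 in the same order. Over all probe sets, arrays of the same replicate number did not deviate together (r from -0.01 to 0.09), so the numbers were not taken to pair samples. Over the members alone r ran from -0.24 to 0.355 between arrays of the same number. Between arrays of different numbers it ran from -0.355 to 0.24. With a replicate block, falls more than 2-fold were 11 for turning, 4 for pink and 6 for red ripe, and 9 of the 32 named calls were lost.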
